A study of Rattus norvegicus with 8 samples.

Results

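The genes of Wnt signalling examined here were the 45 genes, of 14217 measured, whose symbol in the array's gene annotation is Wnt, Fzd, Dkk, Sfrp, Dvl, Axin, Rspo or Lgr with a number, or is Lef1, Tcf7, Tcf7l1, Tcf7l2, Lrp5, Lrp6, Frzb, Wif1 or Apc. They were 13 Wnt ligands, 8 secreted antagonists, 5 R-spondins and R-spondin receptors, 9 Frizzled receptors and Lrp co-receptors, 6 proteins of the Dishevelled and destruction complex step, and 4 TCF/LEF transcription factors. A probe set is the group of probes that reads 1 transcript. In all, 71 probe sets named these genes, and each gene was represented by the one with the highest mean over all 8 arrays. For 18 genes 26 dimmer probe sets remained.

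The tissue was fetal testis of Fischer 344 rats at gestational day 20. In the vehicle group the dams had received corn oil by gavage at 1 ml/kg, and in the DBP group the same volume held 50 mg/kg of dibutyl phthalate, a plasticizer that at high doses is known to impair the fetal testis. Both groups were dosed daily from gestational day 12 to 20 and the testes were taken 6 h after the last dose, with 4 samples per group and 1 Affymetrix array per sample. The labels do not say whether the samples came from separate litters or from pooled testes, and each p-value is therefore a statement about the spread of these 8 arrays, which may be technical. With 4 arrays per group precision is limited.

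Wnt ligands are lipid-bearing secreted proteins that bind a Frizzled receptor together with Lrp5 or Lrp6. The signal passes through Dishevelled and frees beta-catenin from the destruction complex of Axin, Apc and Gsk3, so that beta-catenin can act on target genes with TCF/LEF factors. Secreted antagonists bind the ligands (Sfrp proteins, Frzb, Wif1) or the co-receptors (such as Dkk2). R-spondins, through Lgr receptors, raise the number of Frizzled receptors at the surface. In the early gonad, Wnt4 and Rspo1 are known to favour ovarian over testicular development.

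Array medians lay between 6.08 and 6.13 on the log2 scale, and correlations between arrays between 0.9914 and 0.9982. Defining testis genes were bright, with means over all arrays of 12.64 for Amh of Sertoli cells and 11.69 for Insl3 of Leydig cells. The poly-A spike-in controls, bacterial transcripts added before labelling, were dim on the arrays of DBP replicates 3 and 4, at a mean log2 of 4.64 and 4.6 against 6.1 to 6.72 on the other 6. Changes in DBP replicates 1 and 2 against vehicle are therefore given as well. These come from a fit with a term for the low spike-in arrays. Of 73 measured markers of testicular and neighbouring cell types 2 rose in limma and 0 fell, against 1.22% of all 14217 genes called. The 2 were Testin of Sertoli cells (log2 change 1.3, adjusted p = 0.0112) and Plvap of endothelium (0.36, adjusted p = 0.0471). At an unadjusted p under 0.05, 20 of the 73 markers were higher and 8 lower, against 11.3% and 7.84% of all genes.

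At this dose few Wnt signalling genes differed beyond the spread between arrays. Of the 45 genes 1 rose, the secreted antagonist Sfrp4, and 0 fell at a Benjamini-Hochberg adjusted p under 0.05 in limma's moderated test, with 10 at an unadjusted p under 0.05. The background was 1.22% of all 14217 genes called, 0.598% higher and 0.626% lower (1.07% of all 31042 probe sets), and 1 gene of 45 (2.22%) is no result about these genes as a group. An unadjusted p under 0.05 was found for 22.2% of the Wnt genes against 19.1% of all genes, with 5 Wnt genes (11.1%) higher and 5 lower against a background of 11.3% higher and 7.84% lower. The groups did not overlap for 4 of the 45 genes (8.89%), against 12.9% of all genes. Of these 4, Sfrp4 and Wnt2b lay higher on every DBP array (background 7.31%), and Wnt4 and Lrp6 lower (background 5.56%).

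The median log2 change of the 45 genes, DBP minus vehicle, was 0.00, with 22 genes above 0, 20 below and 3 at 0.00; over all genes the median was 0.02. The extremes were -0.54 for Lrp6 and 0.45 for Sfrp4. For 40 of the 45 genes (88.9%) the 95% confidence interval of the change lay within 0.5 log2 units of 0, a 1.41-fold difference, against 93.5% of all genes. The other 5 were Wnt5a, Sfrp2, Sfrp4, Dkk2 and Lrp6. Since RNA of the testis as an organ was profiled, fewer cells of a type and less RNA per cell cannot be told apart.

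**Figure D1:**
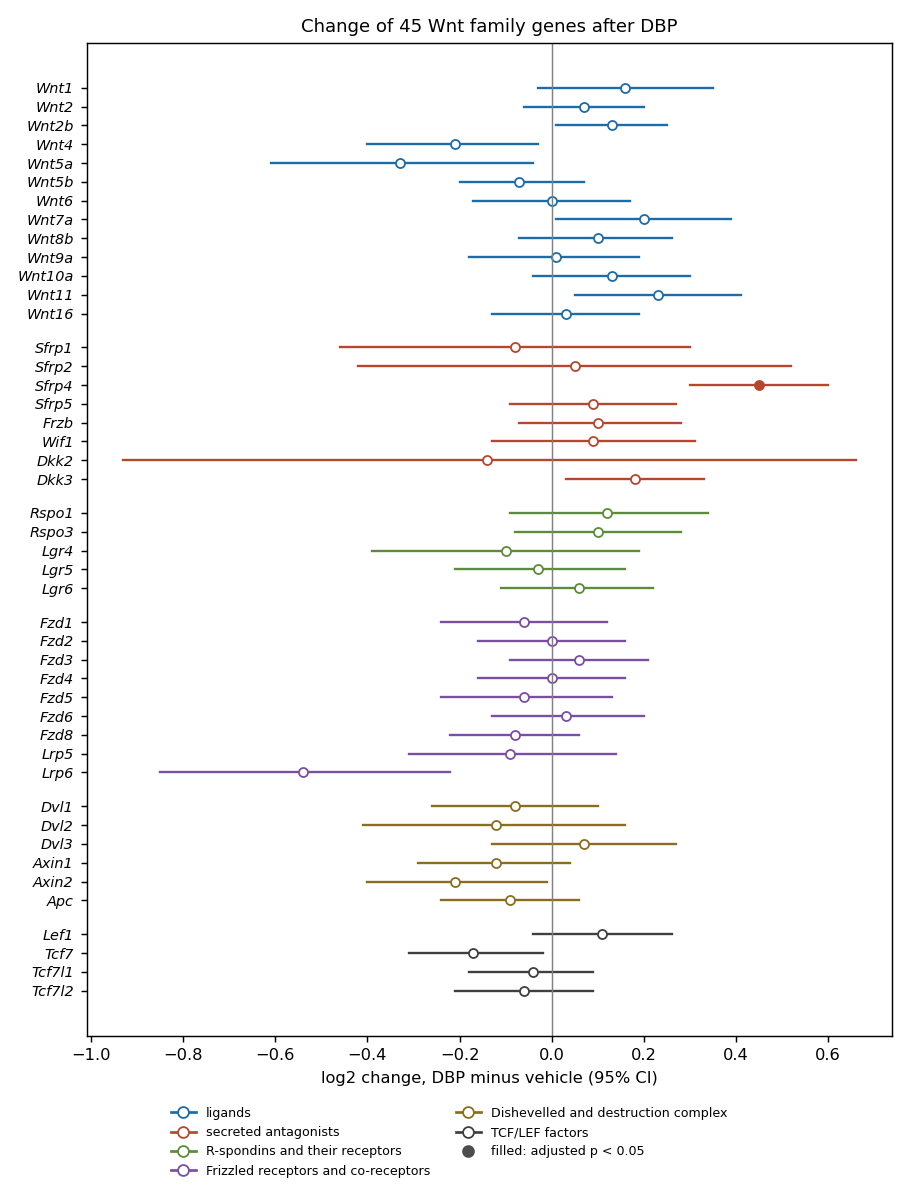
Log2 change (DBP minus vehicle) of the 45 Wnt signalling genes, in blocks and colours by role. Points are the limma estimates from 4 arrays per group, lines their 95% confidence intervals, and the filled point is the gene past an adjusted p of 0.05. Sfrp4 (0.45) is the filled point on the right and Lrp6 (-0.54) lies farthest left, while most intervals cross 0.

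Among the secreted antagonists, Sfrp4 was the gene that rose. Sfrp4 encodes a secreted Frizzled-related protein, a decoy that holds Wnt ligands away from their receptors. Its log2 values were 5.34, 5.55, 5.39 and 5.29 in vehicle replicates 1 to 4 and 5.89, 5.77, 5.83 and 5.88 in DBP replicates 1 to 4. All 4 DBP arrays lay above all vehicle arrays, and the DBP arrays lay closer together. The mean went from 5.39 ± 0.113 to 5.84 ± 0.055 (SD, n = 4 per group), a 1.37-fold rise with a log2 change of 0.45 ± 0.0681 (SE; 95% interval 0.30 to 0.60; limma adjusted p = 0.0141). The first pair of DBP arrays gave 0.44 (adjusted p = 0.0406) and the last pair 0.46, with all 4 DBP arrays between 5.77 and 5.89. The dimmer Sfrp4 probe set was also higher, by 0.14, without passing (adjusted p = 0.265), with 3.33, 3.37, 3.44 and 3.32 in vehicle and 3.65, 3.44, 3.47 and 3.48 after DBP. Leaving out 1 array ended the call for vehicle replicate 1 (0.061), 3 (0.065) or 4 (0.0581), with changes of 0.42 to 0.45. A fit with the replicate number as a block also ended it (limma adjusted p = 0.0602).

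Dkk3, a Dickkopf-related secreted glycoprotein, measured 7.07, 7.25, 7.17 and 7.19 in vehicle and 7.4, 7.35, 7.22 and 7.43 after DBP. The groups overlapped at DBP replicate 3 alone. The change was 0.18 (interval 0.03 to 0.33; limma adjusted p = 0.205), and its 3 dimmer probe sets gave 0.05 to 0.13. It did not pass.

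For 3 other antagonists, Sfrp1, Sfrp2 and Dkk2, the DBP group was split rather than shifted. Sfrp1 and Sfrp2 encode relatives of Sfrp4 and Dkk2 a Dickkopf protein that binds Lrp5 and Lrp6. Sfrp1 measured 9.34, 9.67, 9.55 and 9.81 in vehicle and 9.67, 9.95, 9.35 and 9.08 in DBP replicates 1 to 4. Sfrp2 measured 6.16, 6.73, 6.66 and 6.88 in vehicle and 6.88, 7.17, 6.31 and 6.26 after DBP. Dkk2 measured 4.26, 5.15, 4.94 and 4.96 in vehicle and 5.21, 5.46, 4.54 and 3.55 after DBP. Its signal was weak, with a mean over all arrays of 4.76. In each of the 3 genes DBP replicate 2 was the highest of all 8 arrays, DBP replicates 3 and 4 were the lower pair of their group, and vehicle replicate 1 was the lowest vehicle array. The group changes were -0.08 for Sfrp1 (interval -0.46 to 0.30), 0.05 for Sfrp2 (-0.42 to 0.52) and -0.14 for Dkk2 (-0.93 to 0.66). Against vehicle, the first pair of DBP arrays gave 0.22, 0.42 and 0.51 (limma adjusted p = 0.572, 0.332 and 0.512) and the last pair -0.38, -0.32 and -0.78. The wide intervals of these genes therefore leave changes of over 0.4 in either direction possible for Sfrp2 and Dkk2.

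The same highest and lowest DBP arrays appeared in both dimmer Sfrp1 probe sets, where DBP replicate 2 was highest (7.92 and 7.24) and DBP replicate 4 lowest (7.15 and 6.24). The dimmer Sfrp2 probe set did not show it as clearly: it measured 4.97, 5.43, 5.46 and 5.56 in vehicle and 5.52, 5.63, 5.51 and 5.17 after DBP, with the third DBP array level with the first and the last pair at -0.01 against vehicle. Frzb, another Frizzled-related antagonist, had 8.26 and 8.20 in DBP replicates 1 and 2, against 7.96 and 8.02 in replicates 3 and 4, with 7.90 to 8.12 in vehicle. Its change was 0.10 (limma adjusted p = 0.497). Wif1, which binds Wnt ligands directly, and Sfrp5 each gave 0.09 (limma adjusted p = 0.638 for Wif1 and 0.574 for Sfrp5). Not all antagonists split in this direction. Sfrp5 gave -0.04 in the first pair of DBP arrays and 0.22 in the last, and Dkk3 gave 0.20 and 0.15. Of genes that are not antagonists, Lgr4 (0.17 and -0.37) and Dvl2 (0.09 and -0.33) split as Sfrp1 did. The marker lists of stroma, erythroid cells and endothelium were also higher on both DBP replicates 1 and 2 than on either of 3 and 4. The mean log2 over 10 stroma markers was 11.61, 11.71, 11.48 and 11.40 in DBP replicates 1 to 4 and 11.64 to 11.74 in vehicle. Over 7 erythroid markers it was 9.0, 8.91, 8.45 and 8.50, against 8.30 to 8.62 in vehicle. Over 8 endothelial markers it was 7.3, 7.4, 7.27 and 7.27, against 7.27 to 7.29 in vehicle. The myoid list gave 9.91, 9.98, 9.94 and 9.66 and the macrophage list 6.92, 6.84, 6.88 and 6.68. Both were lowest in replicate 4, with replicate 3 between replicates 1 and 2. The Sertoli, Leydig, germ cell and mesonephric duct lists did not split this way. The Leydig list, for example, gave 10.23, 10.37, 10.37 and 10.28, and the Sertoli list 9.36, 9.34, 9.31 and 9.5. In the comparison of all 4 DBP arrays no stroma or erythroid marker was called, 8 of the 10 stroma markers lay lower and all 7 erythroid markers higher, and 3 of each had an unadjusted p under 0.05 in limma. In the first pair of DBP arrays, by the fit with the spike-in term, 4 of the 7 erythroid markers passed: Slc4a1 (1.26, limma adjusted p = 0.0111), Alas2 (0.70, 0.0286), Hemgn (0.63, 0.0362) and Klf1 (0.53, 0.0456). In that fit 158 of all 14217 genes passed. Hba-a3 (0.32), Hbb (0.15) and Epor (0.14) did not pass. Epor went the other way, with 0.56 in the last pair. The part of any cell type and of the low spike-in arrays in the split of Sfrp1, Sfrp2 and Dkk2 was not tested. How many of all genes split in the same way was not counted.

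**Figure D2:**
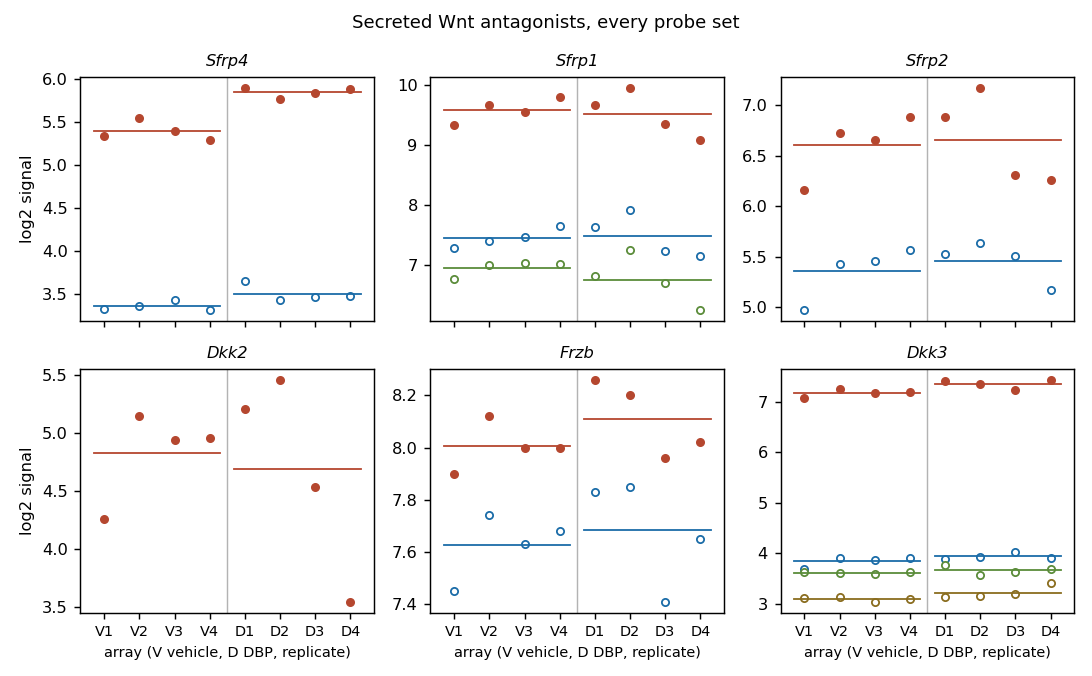
Log2 signal of 6 secreted antagonists on each array, with vehicle replicates V1 to V4 left and DBP replicates D1 to D4 right of the grey line. Filled points are the representing probe set, open points in other colours the dimmer ones, and horizontal lines group means. In the filled points, Sfrp4 is higher on all 4 DBP arrays than in vehicle. Sfrp1, Sfrp2 and Dkk2 are higher in D1 and D2 than in D3 and D4, with several of these arrays inside the vehicle range.

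Of the 13 ligands 0 passed in limma and 5 had an unadjusted p under 0.05, Wnt4 and Wnt5a lower and Wnt11, Wnt2b and Wnt7a higher. Of all genes 19.1% had such a p, 11.3% higher and 7.84% lower, and the ligands were not tested as a group. Wnt4, which in the gonad opposes testis differentiation, measured 7.89, 8.03, 8.01 and 7.93 in vehicle and 7.85, 7.83, 7.83 and 7.49 after DBP. Every DBP array lay below every vehicle array, DBP replicates 1 to 3 by little and replicate 4 by most. The change was -0.21 ± 0.0857 (SE; interval -0.40 to -0.03; limma adjusted p = 0.233), and -0.12 in DBP replicates 1 and 2. It did not pass.

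Wnt5a, a ligand known for signalling without beta-catenin, was steady in vehicle at 7.49, 7.46, 7.54 and 7.54. After DBP it measured 7.34, 7.53, 7.01 and 6.84, so that replicate 2 lay within the vehicle range and replicates 3 and 4 well below it. The SD was 0.0395 in vehicle and 0.312 after DBP. The change of -0.33 (interval -0.61 to -0.04; limma adjusted p = 0.229) came mainly from replicates 3 and 4, at -0.58, against -0.07 in replicates 1 and 2. These are the arrays with low spike-in signal, and their part in the difference was not tested. Its close relative Wnt5b gave -0.07 (interval -0.20 to 0.07).

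Wnt11, another ligand of signalling without beta-catenin, measured 6.18, 6.03, 6.32 and 6.05 in vehicle and 6.45, 6.47, 6.28 and 6.29 after DBP. Only vehicle replicate 3 reached into the DBP range. The change was 0.23 (interval 0.05 to 0.41; limma adjusted p = 0.19), 0.32 in DBP replicates 1 and 2, and the dimmer Wnt11 probe set gave 0.20 without overlap between the groups (adjusted p = 0.238). Wnt2b measured 5.74, 5.90, 5.83 and 5.80 in vehicle and 5.93, 5.97, 5.95 and 5.95 after DBP. Its groups did not overlap, but the difference was small, 0.13 (interval 0.01 to 0.25; adjusted p = 0.246). Wnt7a measured 4.5, 4.74, 4.55 and 4.46 in vehicle and 4.73, 4.61, 4.76 and 4.94 after DBP, a change of 0.20 (adjusted p = 0.258) with overlap at 2 DBP arrays.

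The remaining 8 ligands, Wnt5b among them, ranged from -0.07 to 0.16, the latter for Wnt1 (interval -0.03 to 0.35). Wnt6 had the same mean in both groups, 9.12, with 8.96 and 9.03 in DBP replicates 1 and 2 and 9.26 and 9.23 in replicates 3 and 4, on either side of the 9.08 to 9.16 of vehicle. The change was 0.10 for Wnt8b, 0.13 for Wnt10a, 0.07 for Wnt2, 0.03 for Wnt16 and 0.01 for Wnt9a. Over the 13 ligands the median was 0.07, with 9 higher and 3 lower. A mean log2 under 5 was found for 4 ligands, Wnt2, Wnt7a, Wnt8b and Wnt16, where array signal has a floor and a true change may be understated. The same limit holds for Sfrp5, Dkk2, Rspo1, Rspo3 and Lgr5, so that 9 of the 45 genes had such a mean.

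**Figure D3:**
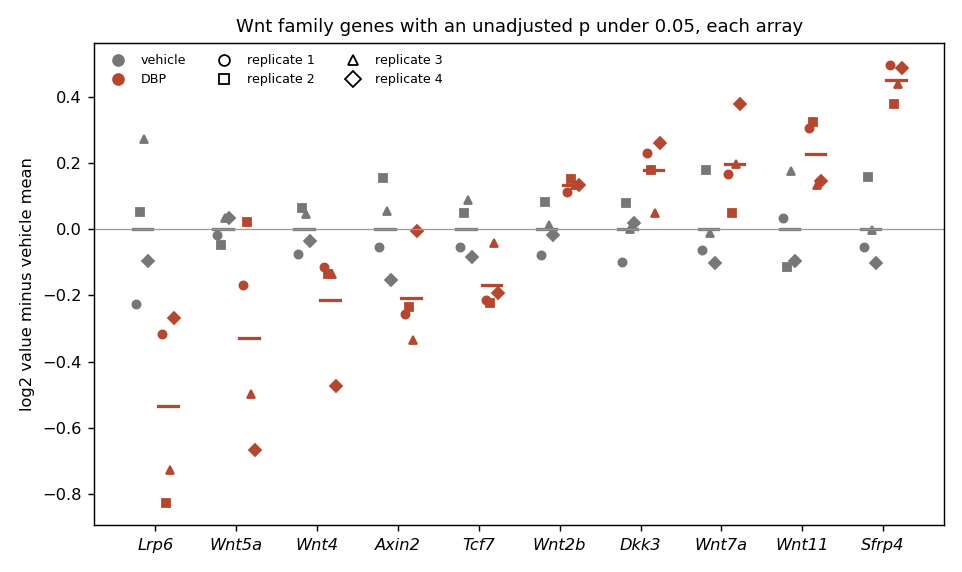
Log2 value minus the gene's vehicle mean on each array for the 10 Wnt signalling genes with an unadjusted p under 0.05, ordered by change. Grey marks are vehicle and red marks DBP arrays, the marker shape gives the replicate number, and bars are group means. Sfrp4, Wnt2b, Wnt4 and Lrp6 are the genes whose groups do not overlap. The Wnt5a DBP arrays spread widely, with replicate 2 highest and replicate 4 lowest.

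None of the 5 R-spondins and Lgr receptors passed in limma, and 0 had an unadjusted p under 0.05. Rspo1, the R-spondin of ovary determination, measured 3.60, 3.46, 3.89 and 3.83 in vehicle and 3.73, 3.77, 3.82 and 3.96 after DBP. These values overlapped and lay near the lower end of the array's scale (change 0.12, interval -0.09 to 0.34). Rspo3 gave 0.10 and its dimmer probe set 0.14. Of the receptors, Lgr4 was the variable one, with 8.20 to 8.36 in vehicle, 8.41 and 8.50 in DBP replicates 1 and 2, and 7.88 and 7.96 in replicates 3 and 4. That left a group change of -0.10 (interval -0.39 to 0.19; limma adjusted p = 0.692), with 0.17 in the first pair of DBP arrays and -0.37 in the last. Lgr5, a stem cell marker in other tissues, gave -0.03 and Lgr6 0.06.

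The receptors themselves differed little. The 7 Frizzled receptors ranged from -0.08 for Fzd8 to 0.06 for Fzd3, and 0 of them had an unadjusted p under 0.05 in limma. Fzd1 measured 8.37, 8.60, 8.55 and 8.47 in vehicle and 8.46, 8.62, 8.32 and 8.35 after DBP (change -0.06, interval -0.24 to 0.12). The dimmer Fzd5 probe set, near the lower end of the scale, lay higher on every DBP array (0.17, limma adjusted p = 0.234) while the brighter gave -0.06. Fzd2 and Fzd4 had the same mean in both groups, 8.61 and 7.21, with intervals of -0.16 to 0.16 each. For all 7 Frizzled receptors the interval excluded a change of 0.5 in either direction.

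Lrp6, the co-receptor that carries the beta-catenin signal beside Frizzled, had the lowest change of the 45 genes. Its values were 7.76, 8.04, 8.26 and 7.89 in vehicle and 7.67, 7.16, 7.26 and 7.72 after DBP. All DBP arrays lay below all vehicle arrays, but the gap between DBP replicate 4 and vehicle replicate 1 was narrow and both groups spread widely. The mean went from 7.99 ± 0.215 to 7.45 ± 0.284 (SD, n = 4 per group), a difference of -0.54 ± 0.144 (SE; interval -0.85 to -0.22) with an unadjusted p of 0.00369 and a limma adjusted p of 0.111. Lrp6 had 1 probe set, gave -0.57 in the first pair of DBP arrays and -0.50 in the last, and did not pass. Lrp5, the other co-receptor, gave -0.09 (interval -0.31 to 0.14), and its dimmer probe set -0.12.

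Of the 6 genes of the Dishevelled and destruction complex step 0 passed in limma and 1 had an unadjusted p under 0.05, Axin2, a scaffold of the complex and the best known feedback target of beta-catenin. It measured 7.34, 7.55, 7.45 and 7.24 in vehicle and 7.14, 7.16, 7.06 and 7.39 after DBP. DBP replicates 1 to 3 lay below all vehicle arrays and replicate 4 within them. The change was -0.21 ± 0.0887 (SE; interval -0.40 to -0.01; limma adjusted p = 0.254). Axin1, the constitutive scaffold, gave -0.12 and Apc, which holds beta-catenin in the complex, -0.09. The second brightest Apc probe set gave -0.07 and the dimmest 0.15. Dvl1, Dvl2 and Dvl3, which relay the receptor's signal, gave -0.08, -0.12 and 0.07. The probe sets of Dvl1 differed: 1 dimmer one lay lower on all DBP arrays (-0.19, unadjusted p = 0.0071, adjusted p = 0.137), the other higher by 0.10.

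Among the TCF/LEF factors, the nuclear partners of beta-catenin, 0 of 4 passed in limma. Tcf7, which had an unadjusted p of 0.0282, measured 9.31, 9.41, 9.45 and 9.28 in vehicle and 9.15, 9.14, 9.32 and 9.17 after DBP. Of the DBP arrays only replicate 3 reached the vehicle range (change -0.17, interval -0.31 to -0.02; adjusted p = 0.227). Lef1 measured 8.25, 8.29, 8.22 and 8.31 in vehicle and 8.29, 8.38, 8.30 and 8.54 after DBP (change 0.11, interval -0.04 to 0.26), and its dimmer probe set gave 0.01. Tcf7l1 gave -0.04 and Tcf7l2 -0.06. Tcf7l2 had 5 probe sets, and 1 of the dimmer ones stood apart: it measured 6.07, 5.94, 6.33 and 6.06 in vehicle and 5.78, 5.59, 5.43 and 5.76 after DBP. Its groups did not overlap and the difference was -0.46 ± 0.101 (SE; adjusted p = 0.0639), while the other 4 gave -0.07 to 0.00. Which transcript that probe set reads was not analysed here.

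Promoter windows were searched for TCF/LEF motif letters, and the stretches of Axin2 and Tcf7, with matches in the sense direction, are shown. The motif was searched in 4 forms on both strands, the form CTTTGAA, the form CTTTGAT, the form CTTTGTA and the form CTTTGTT, from 250 bases before to 50 bases after the start site, in RefSeq promoters of the GRCr8 build, which matched 33 of the 45 genes. Sfrp4 and Lrp6 were not among the 33. A match was found for 3 of the 33 (9.09%), Axin2, Tcf7 and Sfrp5, against 17.1% of all 33469 promoter windows of that length. Capitals mark the matches, and a match is a description of the window and not a measured binding site. The Axin2 stretch is chr10:94398535-94398684 on the plus strand, bases -250 to -101, with matches starting at -232 and -132. The Tcf7 stretch is chr10:36954277-36954426 on the minus strand, bases -147 to 3, with a match starting at -4. The Sfrp5 match, CTTTGTA, lay on the opposite strand from -112 to -106.
Axin2: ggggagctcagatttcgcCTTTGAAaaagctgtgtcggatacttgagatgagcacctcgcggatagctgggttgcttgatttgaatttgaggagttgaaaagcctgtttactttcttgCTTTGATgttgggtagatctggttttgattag
Tcf7: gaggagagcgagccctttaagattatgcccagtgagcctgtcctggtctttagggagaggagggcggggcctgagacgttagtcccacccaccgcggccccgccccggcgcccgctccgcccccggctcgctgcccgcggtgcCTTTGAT

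Other genes of the pathway were taken from 3 lists. Of 65 listed genes outside the 45, 55 were measured. In limma 1 rose and 0 fell, with adjustment over all probe sets, against 1.22% of all genes called. An unadjusted p under 0.05 was found for 11 of the 55, 3 higher and 8 lower. The background was 19.1% of all genes, 11.3% higher and 7.84% lower. With 1 gene called, the count is no result about the 55 genes as a group. Their median change was -0.02. The gene that rose was Cd44, a hyaluronan receptor and a reported beta-catenin target in gut, with 5.21, 5.27, 5.10 and 5.18 in vehicle and 5.54, 5.57, 5.38 and 5.59 after DBP. Its groups did not overlap and the change was 0.33 ± 0.0664 (SE; limma adjusted p = 0.0471). Among the settings that ended this call were leaving out DBP replicate 1 (0.0938), 2 (0.0599) or 4 (0.0749) or vehicle replicate 1 (0.134), 2 (0.0841), 3 (0.171) or 4 (0.135), quantile normalization (0.0619) and a trend and robust prior (0.0647). It also ended in the first pair of DBP arrays (0.36, limma adjusted p = 0.0578) and with the mean over its probe sets (0.20, adjusted p = 0.134).

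Of 18 genes for ligand secretion, surface modulators and planar polarity 0 passed in limma and 4 had an unadjusted p under 0.05. Sostdc1, a secreted Wnt and BMP antagonist, measured 10.07, 9.95, 9.90 and 9.92 in vehicle and 9.77, 9.77, 9.84 and 9.70 after DBP, without overlap (change -0.19, interval -0.32 to -0.06; adjusted p = 0.157). Prickle2 and Vangl2, of planar cell polarity, each gave -0.15, and Sost, sclerostin, 0.23. Wls, the carrier of Wnt ligands to the cell surface, measured 9.03 to 9.09 in vehicle and 9.40, 9.49, 9.17 and 9.03 in DBP replicates 1 to 4. Its change was 0.21 (limma adjusted p = 0.276), and 0.38 in DBP replicates 1 and 2, where it passed (adjusted p = 0.0321).

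Of 27 genes of the cytoplasmic and nuclear steps 0 passed in limma and 4 had an unadjusted p under 0.05, all lower. They included Csnk1e (-0.26, adjusted p = 0.147), a casein kinase that acts on Dishevelled, and Pygo2 (-0.15), a nuclear cofactor of beta-catenin. The others were Map3k7 (-0.23), the kinase TAK1, and Tle3 (-0.19), a Groucho corepressor of TCF factors. Csnk1e gave -0.15 in DBP replicates 1 and 2 (limma adjusted p = 0.469) and -0.37 in replicates 3 and 4. Among the alternatives it passed only without DBP replicate 2 (-0.33, limma adjusted p = 0.0452), where 606 probe sets passed in place of 331. Ctnnb1, which encodes beta-catenin itself, measured 12.27, 12.37, 12.45 and 12.16 in vehicle and 12.16, 11.55, 12.29 and 12.27 after DBP. DBP replicate 2 alone stood low, and the change was -0.24 (interval -0.58 to 0.09; adjusted p = 0.399). Gsk3b, the kinase that marks beta-catenin for destruction, lay lower on every DBP array, 6.65, 6.42, 6.63 and 6.68 against 6.71 to 6.77, a change of -0.14 (adjusted p = 0.292).

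Of 14 general beta-catenin targets outside the 45 genes, Cd44 was called and Msx2 (0.21) and Jun (-0.23) had an unadjusted p under 0.05 in limma. Ccnd1, the cyclin D1 gene, gave 0.14 (interval -0.05 to 0.32; -0.17 with the mean over its probe sets) and Myc -0.02 (interval -0.17 to 0.13). The 14 targets had a median of 0.06, with 9 higher and 5 lower.

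**Figure D4:**
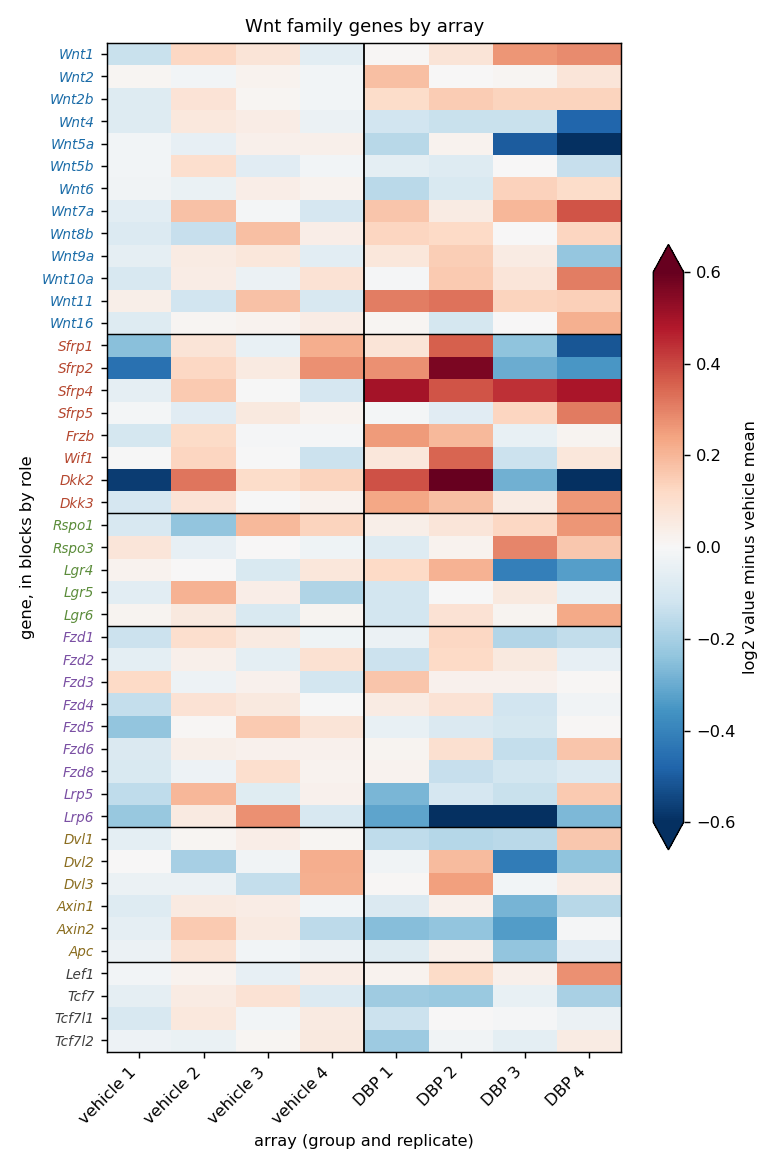
Log2 value minus the gene's vehicle mean for the 45 Wnt signalling genes (rows, label colours and black lines by role) on the 8 arrays (columns). Colours run from -0.6 (blue) to 0.6 (red), and values beyond are shown at the end colour. Sfrp4 is red on all 4 DBP arrays and Lrp6 blue, while Sfrp1, Sfrp2, Dkk2 and Lgr4 change colour between DBP replicates 2 and 3.

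The spread between arrays was larger in the DBP group. That group held the arrays with low spike-in signal, DBP replicates 3 and 4, and their part in the spread was not tested. The DBP group had the larger SD for 32 of the 45 Wnt genes (71.1%), as for 79.9% of all genes, with a median SD of 0.0806 in vehicle and 0.133 after DBP (0.0656 and 0.119 over all genes). The median deviation of the 45 genes from their vehicle means was 0.00, 0.07, -0.02 and 0.02 in DBP replicates 1 to 4, against -0.06 to 0.05 on the vehicle arrays. DBP replicate 2 lay above every vehicle array and the other 3 within their range.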

How the data were processed

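RNA of 8 samples had been hybridised to 1-colour Affymetrix arrays. The authors deposited log2 signals per probe set, and the submitters' processing notes name RMA, a method that corrects background, quantile-normalizes and summarises probes, without a version. Without 57 controls, 31042 of 31099 probe sets entered the tests. The platform annotation gave 20826 of all probe sets 1 symbol, 436 several and 9780 none. No raw array files or genome coordinates of probes were used here.

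The DBP and vehicle arrays were compared by limma's lmFit and eBayes (limma 3.58.1 in R 4.3.3), 2-sided, with Benjamini-Hochberg adjustment over all 31042 probe sets and a threshold of 0.05. Intervals are 95% intervals of that model. In DBP replicates 3 and 4 values are means against the vehicle mean, with no test. The procedure was tested on simulated data with independent arrays and the same spread in both groups. Here the DBP group had the larger spread, so that simulation cannot show how the test behaves on such data. Members, gene lists, naming rule and alternatives were all chosen with earlier results of these data known. All 45 genes could be named, with values per array for those with an unadjusted p under 0.05 and for Wnt4, Wnt5a, Rspo1, Fzd1, Dkk3, Sfrp1, Axin2, Lef1 and Lrp6. Of the pathway lists, genes with an unadjusted p under 0.05 (at most 10), Ctnnb1, Gsk3b, Ccnd1 and Myc could be named. Sfrp2, Dkk2, Frzb, Lgr4, Wnt6, Wls and the dimmer Tcf7l2 probe set were given per array, and Pygo2 and the 7 erythroid markers named, after their values were seen. Alternatives were a replicate block, each array left out, other scalings, signal filters, priors, weights and covariates, other probe set choices, and a term for arrays with low spike-in signal. Python 3.11.15, pandas 2.3.3 and matplotlib 3.10.9 made the tables and figures.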

Additional observations from a re-analysis of the deposited data

Results flagged for a closer look

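In 7 of 90 groups of 4 arrays (45 genes in 2 groups) 1 array lay far from the other 3 by Dixon's ratio, its gap to the nearest array divided by the group's range; chance gives about 1 in 20 groups. After DBP, Wnt4 was lowest in replicate 4 at 7.49 against 7.83 to 7.85 (ratio 0.944). Wnt8b was lowest in DBP replicate 3 at 3.41 against 3.53 to 3.54 (0.923). Fzd3 was highest in DBP replicate 1 at 5.39 against 5.23 to 5.25 (0.875). Dvl1 was highest in DBP replicate 4 at 7.64 against 7.31 to 7.33 (0.939). Tcf7 was highest in DBP replicate 3 at 9.32 against 9.14 to 9.17 (0.833). In vehicle, Fzd6 was lowest in replicate 1 at 7.15 against 7.26 to 7.27 (0.917) and Apc highest in replicate 2 at 9.04 against 8.91 to 8.93 (0.846).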

How the results depend on the processing

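With the replicate number as a block 175 probe sets passed in place of 331. Among them were 0 Wnt genes, 0 other pathway genes and 1 cell type marker in place of 1, 1 and 2. The limma adjusted p was 0.0602 for Sfrp4 and 0.0674 for Cd44. Deviations of same-numbered arrays correlated at 0.108, -0.076, 0.097 and -0.021 over all probe sets. The labels do not say whether same-numbered samples shared a litter or day, and these correlations cannot settle it. Leaving out each array in turn gave 82 to 606 probe sets, 0 to 1 Wnt genes, 0 to 1 other pathway genes and 0 to 5 markers. Sfrp4 passed in 14 of 18 alternatives that tested it, with changes of 0.30 to 0.50 and adjusted p-values of 0.0115 to 0.065. With a mean log2 above the median, 28 Wnt genes remained, which leaves out Sfrp4: 0 passed, their median was -0.07, and 0 other pathway genes passed. The latter count was also 0 with quantile normalization, a trend and robust prior, without cross-matching probe sets and with the mean over probe sets. Markers past the threshold numbered 9 with the trend and robust prior, 6 with the spike-in term (4 of them erythroid) and 5 with array weights. After arrays were shifted to the same median 158 of 317 called probe sets were higher, against 130 of 331, and 25 Wnt genes lay above 0 and 19 below. The median change of the Wnt genes was otherwise -0.03 to 0.04.

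Changes of sign, none of them at an adjusted p under 0.05, were as follows. With the spike-in term, Dkk2 gave 0.51, Sfrp1 0.22, Lgr4 0.17, Dvl2 0.09, Fzd1 0.04, Lgr6 -0.01, Rspo3 -0.03, Sfrp5 -0.04 and Wnt16 -0.05. With the RNA integrity number as covariate, Dkk2 gave 0.09, Sfrp1 0.07 and Lgr4 0.01. Dkk2 gave 0.05 with array weights. Quantile normalization gave -0.03 for Wnt16, -0.02 for Wnt9a, 0.01 for Tcf7l1 and 0.03 for Myc. The mean over probe sets gave 0.06 for Fzd5 and -0.17 for Ccnd1. Leaving out 1 array at a time gave -0.39 to 0.24 for Dkk2, -0.23 to 0.06 for Sfrp1, -0.12 to 0.18 for Sfrp2, -0.01 to 0.09 for Fzd6, -0.09 to 0.04 for Lgr5, -0.03 to 0.08 for Wnt16, -0.04 to 0.09 for Wnt9a and -0.06 to 0.01 for Myc. The cause of these moves was not tested.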
